A study of Mus musculus with 18 samples.

Results

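The genes *Myc*, *Mycn*, *Mycl*, *Max*, *Mxd1*, *Mxi1*, *Mnt* and *Mga*, called the MYC network genes below, were followed in nascent RNA of mouse embryonic stem (mES) cells with and without *Tet2*. They are 8 of the 54446 genes in the counts and were chosen by symbol, as the MYC transcription factors, their dimerization partner MAX and the MAX-binding antagonists. All 8 had enough reads to be tested. WT and *Tet2*-KO mES cells were labelled with 1 mM 5-ethynyl uridine (EU), a uridine analogue that is built into RNA during transcription, for 10, 20 or 40 min, and labelled RNA was captured on streptavidin beads and sequenced with ERCC spike-in RNA added in proportion to total RNA. Each of the 6 combinations of genotype and EU time had 3 replicates, for 18 libraries in all. Per the methods there was 1 WT line and 1 *Tet2*-/- line, so no second knockout clone stands behind the 3 replicates, and p-values measure only the spread between samples of a line. Both lines grew in 15% serum with leukaemia inhibitory factor, 3 μM CHIR99021 (a GSK3 inhibitor) and 1 μM PD0325901 (a MEK inhibitor), were cleared of feeder cells by passage on gelatin, and were harvested 42 h after seeding. GSK3 and ERK signalling, which act on the stability of MYC protein, were thus inhibited in all groups, and protein was not measured.

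MYC, MYCN and MYCL bind DNA as dimers with MAX at the E-box CACGTG and recruit histone acetyltransferases and elongation factors to the genes they activate, many of them for ribosome biogenesis and metabolism. MXD1, MXI1 and MNT compete for MAX at the same sites and bring the SIN3-HDAC corepressor. MGA, the largest MAX partner, is part of the Polycomb complex PRC1.6, which keeps germline genes silent in mES cells. In mES cells MYC and MYCN can stand in for each other in self-renewal.

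The E-box was looked for in the 250 bases before each annotated start (RefSeq, GRCm38.p6). CACGTG reads the same on both strands. It lay in 1978 of the 32851 windows of the table, or 6.02%, and in at least 1 window of 1854 of the 27025 genes, or 6.86%. Of the MYC network genes, 7 matched the table, and *Mnt* alone held the motif, 123 bases before its start. *Mycn*, *Mycl*, *Max*, *Mxd1*, *Mxi1* and *Mga* matched the table and had no CACGTG in their windows. The unmatched gene was *Myc*. Of 12 germline genes known as targets of MGA and MAX, 6 held it in 7 of their 14 windows, and of the 5 further MXD and MLX-branch genes 3 held it. Over the other lists used below, it was found in 5 of 16 matched genes for metabolism and growth, 1 of 15 for ribosome biogenesis, 1 of 13 MYC cofactors, 1 of 10 genes of PRC1.6, 1 of 8 SIN3-HDAC genes and 1 of 7 MYC-repressed genes. Dimers with MAX can bind at such places, and not every window with the motif is shown. The windows of *Mnt*, of the 6 germline genes with the motif and of *Mlxipl* are shown as examples. They lie at chr11:74830774-74830833 (*Mnt*, plus strand), chr6:49395457-49395516 (*Stk31*, plus), chr1:166238935-166238994 (*Mael*, minus), chr3:40708751-40708810 (*Slc25a31*, plus), chrX:134476507-134476566 (*Taf7l*, minus), chr10:88459496-88459555 (*Sycp3*, plus), chr13:112652311-112652366 (*Ddx4*, minus) and chr5:135089765-135089824 (*Mlxipl*, plus). Each is printed 5′ to 3′ on the strand of its gene, with CACGTG in capitals. *Sycp3* held the motif at 2 places.
Mnt: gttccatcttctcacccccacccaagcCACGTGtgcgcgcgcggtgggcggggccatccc
Stk31: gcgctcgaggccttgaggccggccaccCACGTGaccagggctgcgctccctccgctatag
Mael: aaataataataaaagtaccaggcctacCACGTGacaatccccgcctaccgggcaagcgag
Slc25a31: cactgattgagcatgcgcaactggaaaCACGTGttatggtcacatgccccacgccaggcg
Taf7l: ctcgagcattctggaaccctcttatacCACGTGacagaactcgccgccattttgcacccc
Sycp3: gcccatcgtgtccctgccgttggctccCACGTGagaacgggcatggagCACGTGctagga
Ddx4: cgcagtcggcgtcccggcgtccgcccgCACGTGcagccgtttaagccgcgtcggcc
Mlxipl: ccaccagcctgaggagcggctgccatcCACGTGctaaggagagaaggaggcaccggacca

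Between 17931614 and 23069143 reads per library fell on genes and between 44162 and 512186 on ERCC transcripts. Reads on *Tet2* (chromosome 3, 133463679 to 133545139 of mm10) were present in both genotypes, at 589 to 741 CPM (counts per 1000000 reads on genes, the share of gene reads) in WT and 529.7 to 643 CPM in *Tet2*-KO. Counts summed over a gene cannot show a deleted exon and check no label, so the genotypes are those of the labels. Marker shares were compared averaged over EU times, where 24.6% of all genes were higher and 32.0% lower in *Tet2*-KO. Of 8 pluripotency markers 7 were tested, and 2 had a higher and 5 a lower share of gene reads in *Tet2*-KO. Their summed share was 2940 to 3096 CPM in WT and 2162 to 2287 in *Tet2*-KO. The largest fall was that of *Zfp42* (log2 fold change −2.25, SE 0.02, adjusted p = 7.12e-41, edgeR's quasi-likelihood test). The other falls were smaller, at −0.64 for *Klf4*, −0.47 for *Tfcp2l1*, −0.12 for *Nanog* and −0.06 for *Esrrb*. *Sall4* (0.33) and *Pou5f1* (0.16) were higher. *Sox2* was listed at 0 in every library, and it lies inside *Sox2ot* on the same strand. Summed over 8 fibroblast markers, the share was 21.5 to 22.9 CPM in the WT libraries at 10 min. At 20 min it was 12.4 to 13.9 in *Tet2*-KO and 8.06 to 8.40 in WT. In the remaining groups it was 6.46 to 9.08. Between genotypes 2 of these markers rose and 1 fell of the 5 that could be tested. *Lum* had at most 1 read in any library. The summed share of 6 primitive endoderm markers was 14.5 to 21.5 CPM in WT and 14.0 to 18.7 in *Tet2*-KO, with 0 higher and 1 lower of the 4 tested. For 6 trophectoderm markers it was 10.6 to 12.8 and 14.0 to 18.9, with 1 higher and 1 lower of 4. The higher was *Gata3*, with a median of 4.29 CPM in WT and 11.3 in *Tet2*-KO. The lower was *Eomes*, with 5.55 and 3.62. The part of these differences in the results for the MYC network genes was not tested. In bulk RNA, fewer cells of a type and less RNA per cell cannot be told apart.

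The MYC network genes differed widely in how much of the nascent RNA they made up. Because the deposited counts behave as counts over whole genes, introns included, levels between genes were compared as CPM per kilobase of the annotated gene. By this measure *Mycn* had the highest median over the 18 libraries, 7.71 (5.18 to 12.4), followed by *Mga* at 6.14 (5.46 to 7.30). *Max* at 3.30 (2.76 to 4.0) and *Mnt* at 3.22 (2.83 to 3.63) came next. *Myc* was at 1.89 (1.39 to 2.92), well under its paralogue *Mycn*. *Mxi1* was at 0.939 (0.751 to 1.46), *Mycl* at 0.515 (0.380 to 0.651) and *Mxd1* at 0.515 (0.325 to 0.918). These medians pool genotypes and times, and the order of the low genes differed between genotypes. In WT the group means of *Mxd1*, 0.651 to 0.809, were above those of *Mycl*, 0.422 to 0.528, and at 20 and 40 min also above those of *Mxi1* (0.783 and 0.774), with ranges that overlapped. In *Tet2*-KO *Mxd1*, at 0.345 to 0.414, was below *Mycl*, at 0.494 to 0.572. Over all libraries, the ranges of neighbours in this order overlapped except between *Mga* and *Max* and between *Mxi1* and *Mycl*. Among 15158 protein-coding genes, *Mycn* lay at percentile 95.2, *Mga* at 93.5, *Max* at 85.4, *Mnt* at 84.9, *Myc* at 73.8, *Mxi1* at 56.8, *Mycl* at 44.3 and *Mxd1* at 44.2. Divided by the length of the annotated exons instead, the order was *Mga*, *Max*, *Mycn*, *Mnt*, *Mxi1*, *Myc*, *Mxd1* and *Mycl*, and *Mnt* alone kept its place.

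Whether loss of *Tet2* goes with a different output of these genes was asked on 2 scales. The level per ERCC read follows the study's calibration to spike-in and holds any change that all genes share, while the share of gene reads shows a gene relative to the rest of the nascent RNA. As levels per ERCC read averaged over EU times, 7 of the 8 genes were higher in the libraries labelled *Tet2*-KO and *Mxd1* alone was lower. On this scale 80.5% of the 19910 genes tested were higher and 4.15% lower, so a rise was the common case. The log2 fold changes of the 7 were 1.08 for *Mycn*, 0.99 for *Mxi1*, 0.89 for *Mycl*, 0.79 for *Mga*, 0.72 for *Myc*, 0.58 for *Max* and 0.55 for *Mnt*. Their SEs were 0.05 to 0.13, and the median was 0.75 over the 8 genes and 0.70 over all genes tested.

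As shares of gene reads, 3 of the 8 were higher in libraries labelled *Tet2*-KO (*Mycn*, *Mxi1* and *Mga*), 3 were lower (*Mxd1*, *Mnt* and *Max*) and 2 passed no test (*Myc* and *Mycl*). Over all genes, 24.6% were higher and 32.0% lower on this scale. The median log2 fold change was 0.02 over the 8 genes and −0.04 over all genes. So *Max* and *Mnt* were higher per ERCC read and lower as a share, by less than the general rise.

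**Figure D1:**
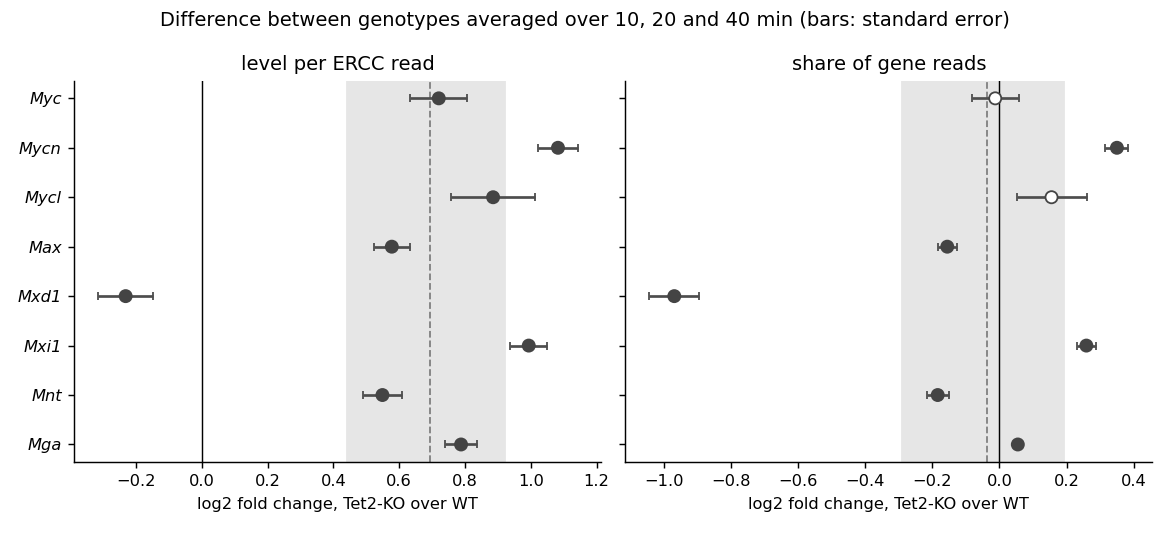
Log2 fold change between libraries labelled *Tet2*-KO and WT for each gene (rows), averaged over EU times, as level per ERCC read (left) and as share of gene reads (right). Points are fitted values, bars are SEs, filled points passed an adjusted p of 0.05, the dashed line is the median of all 19910 genes and the grey band their middle quartiles. *Mxd1* lies at −0.23 and −0.97, apart from the other 7 genes on both scales.

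Of the 3 MYC genes, only *Mycn* passed the test between genotypes as a share, and differences between them were not tested. *Mycn* (chromosome 12, 12936093 to 12941914 of mm10, minus strand), the MYC gene with the most nascent reads here, had 35.3, 35.8 and 30.2 CPM in the WT libraries at 10 min, 39.4, 40.4 and 38.1 at 20 min and 49.1, 51.8 and 52.0 at 40 min. The libraries labelled *Tet2*-KO had 40.2, 41.2 and 44.1 at 10 min, 45.7, 48.7 and 48.1 at 20 min and 72.2, 70.1 and 69.0 at 40 min. Every *Tet2*-KO library was above every WT library of its EU time. The share was 1.27-fold higher (log2 0.35, SE 0.03, adjusted p = 1.36e-10, edgeR), which placed *Mycn* at percentile 83.7 of all genes. Its log2 difference was 0.31 at 10 min, 0.27 at 20 min and 0.47 at 40 min, and it passed the test at each.

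*Myc* (chromosome 15, 61985391 to 61990374, plus strand) had 135 to 326 reads per library. In WT its share was 6.95, 7.05 and 6.93 CPM at 10 min, 7.89, 11.1 and 9.59 at 20 min and 14.1, 13.9 and 13.7 at 40 min. The libraries labelled *Tet2*-KO had 7.16, 7.49 and 7.71, then 8.95, 9.79 and 9.25, then 12.6, 11.7 and 14.6. The groups overlapped at 20 and 40 min, while at 10 min the 3 *Tet2*-KO libraries lay just above the 3 of WT. The averaged log2 difference in share was −0.01 (SE 0.07, adjusted p = 0.893, edgeR), with a 95% interval from 0.90-fold to 1.09-fold. Per ERCC read *Myc* was 1.65-fold higher, at percentile 53.4 of all genes.

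*Mycl* (chromosome 4, 122995652 to 123002485, plus strand), a paralogue with 51 to 91 reads per library, had 2.60 to 3.94 CPM in WT and 3.22 to 4.45 in *Tet2*-KO. The averaged log2 difference in share was 0.16 (SE 0.10, adjusted p = 0.212, edgeR), and the 95% interval reached from 0.96-fold to 1.29-fold. At 20 min the 3 *Tet2*-KO libraries lay above the 3 of WT, with a log2 difference of 0.44 (1.35-fold, SE 0.18, adjusted p = 0.0601, edgeR).

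Within a library, where depth and spike-in cancel, there were 3.48 to 5.08 *Mycn* reads per *Myc* read in WT and 4.74 to 5.98 in *Tet2*-KO. At 10, 20 and 40 min the WT means were 4.83 ± 0.42 (SD, n = 3), 4.20 ± 0.71 and 3.67 ± 0.17. In *Tet2*-KO they were 5.61 ± 0.11, 5.10 ± 0.11 and 5.48 ± 0.65, and the groups overlapped at 20 min only.

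**Figure D2:**
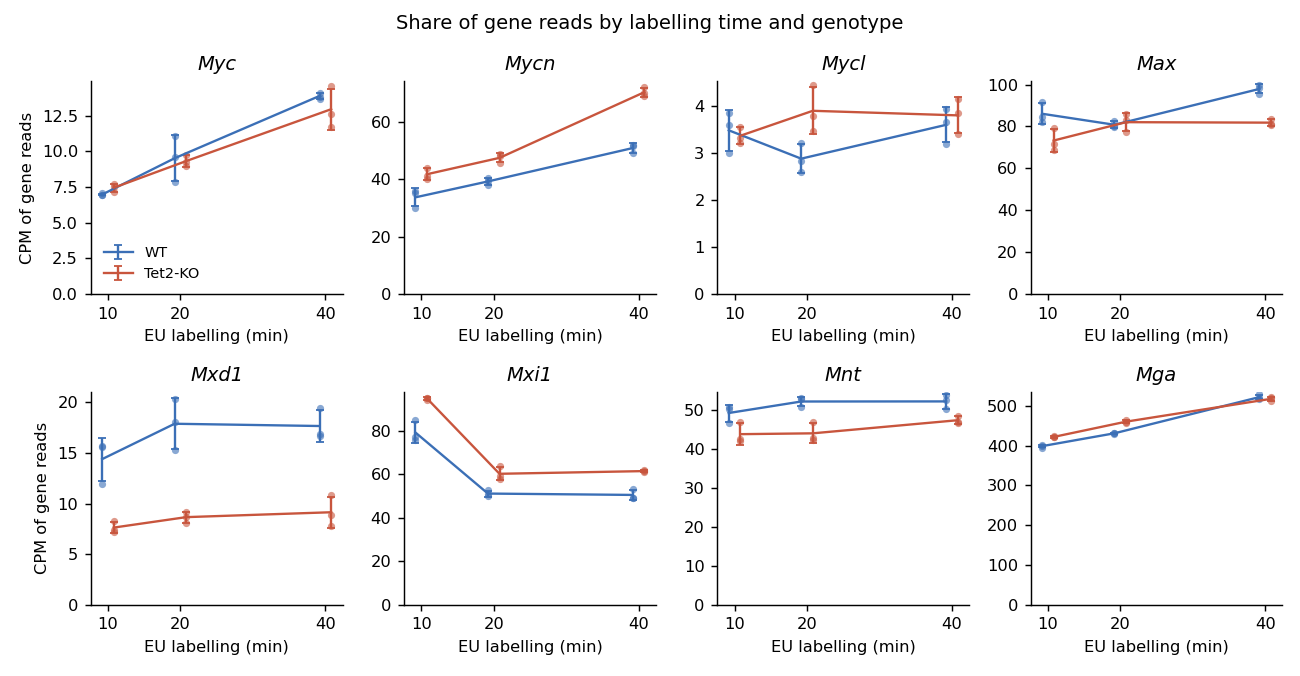
Share of gene reads (CPM, vertical axes from 0) against EU time (min) for each gene, in WT (blue) and in libraries labelled *Tet2*-KO (red). Points are libraries and lines join means ± SD (n = 3). *Mycn* and *Mxi1* lie higher and *Mxd1* lower in *Tet2*-KO at each time, and *Myc* rises with EU time in both.

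*Max* (chromosome 12, 76937269 to 76962201, minus strand) encodes the shared partner with which the other proteins of the network can bind DNA. Its share was 91.5, 82.0 and 84.7 CPM in WT at 10 min, 79.6, 82.7 and 80.2 at 20 min and 99.7, 95.5 and 98.5 at 40 min. The libraries labelled *Tet2*-KO had 79.5, 68.8 and 71.6, then 83.3, 77.1 and 85.7, then 81.0, 80.7 and 83.8. These were lower than WT without overlap at 10 and 40 min and overlapped at 20 min. The averaged log2 difference was −0.16 (SE 0.03, adjusted p = 2.12e-05, edgeR). By time it was −0.23 and −0.26 at 10 and 40 min, which passed the test, and 0.02 at 20 min (adjusted p = 0.772, edgeR).

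Among the antagonists, *Mxd1* and *Mxi1* moved in opposite directions. *Mxd1* (chromosome 6, 86647042 to 86669161, minus strand), which encodes a MAX partner that is induced as cells leave the cycle and differentiate, had 134 to 436 reads per library. Its share in WT was 15.7, 11.9 and 15.6 CPM at 10 min, 15.3, 18.1 and 20.3 at 20 min and 16.7, 19.5 and 16.9 at 40 min. Libraries labelled *Tet2*-KO had 8.27, 7.44 and 7.19, then 8.10, 8.70 and 9.20, then 10.8, 7.76 and 8.87. The highest *Tet2*-KO library lay below the lowest WT library over all 3 times. The share was 1.96-fold lower (log2 −0.97, SE 0.07, adjusted p = 3.41e-13, edgeR), at percentile 5.2 of all genes. The log2 difference was −0.91 at 10 min, −1.05 at 20 min and −0.95 at 40 min.

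Per ERCC read the difference in *Mxd1* was small, since the fall in share and the general rise partly cancelled. In WT its level per 1000 ERCC reads was 0.729, 0.607 and 0.668 at 10 min, 2.21, 2.84 and 2.85 at 20 min and 4.06, 5.04 and 4.03 at 40 min. It was 0.794, 0.667 and 0.724, then 1.55, 1.87 and 1.94, then 4.64, 2.84 and 3.52 in libraries labelled *Tet2*-KO. The groups overlapped at 10 and 40 min and stood apart at 20 min. Averaged, the level was lower by log2 −0.23 (SE 0.08, adjusted p = 0.00708, edgeR), and at 20 min alone by −0.56 (adjusted p = 0.00031). At 10 min the difference was 0.13 and at 40 min −0.26, and neither passed the test (adjusted p = 0.419 and 0.0891, edgeR).

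*Mxi1* (chromosome 19, 53310518 to 53375810, plus strand), whose product is also called MXD2, had 75.7, 77.0 and 84.9 CPM in WT at 10 min, 51.0, 49.8 and 52.6 at 20 min and 53.3, 49.2 and 49.1 at 40 min. The libraries labelled *Tet2*-KO had 94.0, 95.3 and 95.3, then 63.7, 58.0 and 59.1, then 61.1, 61.5 and 61.8, above WT without overlap at each time. The share was 1.20-fold higher (log2 0.26, SE 0.03, adjusted p = 2.55e-09, edgeR), with a log2 difference of 0.26, 0.24 and 0.28 at 10, 20 and 40 min. Part of its exons, 194 bases, is shared with *Gm10197* on the other strand, which had at most 1 read in any library.

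*Mnt* (chromosome 11, 74830920 to 74845725, plus strand), the antagonist that most cells express, had 46.7 to 53.8 CPM in WT and 41.9 to 48.5 in libraries labelled *Tet2*-KO. The averaged log2 difference in share was −0.18 (SE 0.03, adjusted p = 1.35e-05, edgeR). The groups stood apart at 20 and 40 min and overlapped at 10 min. At 40 min the adjusted p of 0.05001 sat at the threshold.

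The ratio of *Mycn* to *Mxd1* reads differed between genotypes at every time. There were 1.88 to 3.08 *Mycn* reads per *Mxd1* read in WT and 4.86 to 9.03 in *Tet2*-KO, with means of 2.40 ± 0.55 (SD, n = 3), 2.23 ± 0.35 and 2.89 ± 0.22 at the 3 times in WT and 5.51 ± 0.64, 5.49 ± 0.23 and 7.83 ± 1.17 in *Tet2*-KO. The antagonists' own ratio was 2.53 to 6.44 *Mxi1* reads per *Mxd1* read in WT and 5.65 to 13.3 in *Tet2*-KO. For both ratios the groups stood apart at each time. *Max* reads per *Myc* read were 6.90 to 13.2 in WT and 5.75 to 11.1 in *Tet2*-KO.

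*Mga* (chromosome 2, 119897228 to 119969581, plus strand) had the most reads of the 8, 7570 to 11948 per library, and the smallest error. Its share was 402, 399 and 395 CPM in WT and 424, 420.1 and 421 in *Tet2*-KO at 10 min. At 20 min WT had 431, 429.7 and 431 and *Tet2*-KO 465, 457 and 458. At 40 min the values met, at 518, 518 and 528 in WT and 521, 512 and 519 in *Tet2*-KO. The averaged log2 difference was 0.05 (SE 0.01, adjusted p = 0.000182, edgeR), a 1.04-fold rise.

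At the single times, 3 of the 8 genes were higher and 3 lower in share at 10 min, where 17.9% and 27.1% of all genes were. At 20 min 3 were higher and 2 lower, beside 17.6% and 20.7% of all genes, and at 40 min 2 and 2, beside 18.9% and 19.6%. Fitted on the libraries of that time alone, *Mnt* lost its call at 10 min (adjusted p = 0.073, edgeR), which left 2 lower, and gained it at 40 min (adjusted p = 0.0151), which made 3. *Mycn*, *Mxi1* and *Mxd1* passed at all 3 times. *Mycn* and *Mxi1* were above WT without overlap at every time, as were 11.8% of all genes, and *Mxd1* was below, as were 13.9%. Per ERCC read 7 genes were higher at each time, beside 79.0% of all genes at 10 min, 53.7% at 20 min and 68.2% at 40 min. On that scale 0, 1 and 0 were lower, beside 2.10%, 4.86% and 2.84%. Per ERCC read, 6 genes (all but *Myc* and *Mxd1*) were above WT without overlap at every time, like 51.6% of all genes, and none was below, beside 1.56%.

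Rates were taken, following the study, as the slope of the spike-in calibrated level on EU time. In WT the slope was 0.363 ± 0.015 (SE, 9 libraries) reads per 1000 ERCC reads per min for *Mycn* and 0.103 ± 0.005 for *Myc*. In libraries labelled *Tet2*-KO these were 0.816 ± 0.052 and 0.150 ± 0.012, which gives ratios of 2.25 and 1.45. The ratio was 1.83 for *Mxi1*, 1.62 for *Mycl*, 1.53 for *Mga*, 1.44 for *Mnt*, 1.27 for *Max* and 0.822 for *Mxd1*. Thus 7 of the 8 slopes were larger in *Tet2*-KO, as were 89.3% of 15158 protein-coding genes, whose median ratio was 1.54, and *Mycn*, *Mxi1* and *Mycl* had a ratio above that median. These ratios hold over the 3 times together. With 10 and 20 min only the ratio was 0.87 for *Mxi1* and 0.91 for *Mnt*, and that of *Mycn* was 1.38 there and 2.68 with 20 and 40 min only. The slopes of *Mxd1*, 0.118 ± 0.014 in WT and 0.097 ± 0.013 in *Tet2*-KO, differed by less than the sum of their errors. Slopes were compared as a description with no test.

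**Figure D3:**
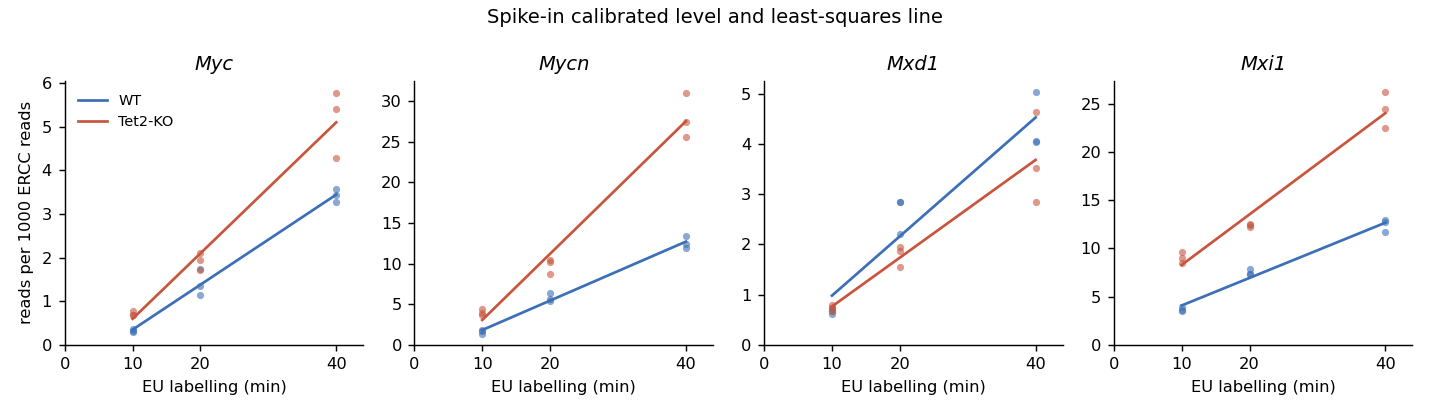
Level in reads per 1000 ERCC reads (vertical axes from 0) against EU time (min) for *Myc*, *Mycn*, *Mxd1* and *Mxi1*, in WT (blue) and in libraries labelled *Tet2*-KO (red). Points are libraries and lines are least-squares fits with an intercept over 9 libraries, whose slopes for *Mycn* are 0.363 in WT and 0.816 in *Tet2*-KO, while the lines of *Mxd1* run close together.

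The share of a gene at 40 against 10 min compares the change in its captured RNA with that of all other genes. None of the 18 libraries was made without EU, so unlabelled RNA that came through the capture cannot be told apart. In WT, 5 of the 8 genes rose in share with EU time (*Myc*, *Mycn*, *Mga*, *Mxd1* and *Max*) and *Mxi1* fell, while 16.1% of all genes rose and 29.5% fell. In libraries labelled *Tet2*-KO 4 rose (*Myc*, *Mycn*, *Mga* and *Max*) and *Mxi1* fell, beside 16.5% and 20.0% of all genes. The fibroblast markers were 5 of 5 lower at 40 than at 10 min in WT, where their summed share fell from at least 21.5 to at most 7.78 CPM, and their part in the WT comparison was not tested. In *Tet2*-KO that sum was 7.33 to 9.08 CPM at 10 min and 6.48 to 7.81 CPM at 40 min.

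*Myc* rose by 1.99-fold in WT (log2 0.99, SE 0.12, adjusted p = 2.19e-08, edgeR) and 1.74-fold in *Tet2*-KO (log2 0.80, SE 0.12, adjusted p = 2.48e-06), at percentiles 98.1 and 97.5 of all genes. *Mycn* rose by 1.51-fold in WT (log2 0.59, SE 0.06) and by 1.69-fold in *Tet2*-KO (log2 0.75, SE 0.06), at percentiles 94.9 and 97.1. For *Mga* the log2 change was 0.39 in WT and 0.30 in *Tet2*-KO, and for *Max* 0.19 and 0.16. *Mxi1* had a log2 change of −0.65 (SE 0.05, adjusted p = 1.54e-12) in WT and −0.63 (SE 0.05, adjusted p = 3.54e-12) in *Tet2*-KO. Most of it lay between 10 and 20 min, where the mean share went from 79.2 to 51.1 CPM in WT and from 94.9 to 60.2 in *Tet2*-KO. *Mxd1* had 0.29 in WT (adjusted p = 0.0438, edgeR) and 0.26 in *Tet2*-KO (adjusted p = 0.157). The WT call of *Mxd1* was lost without WT replicate 2 at 10 min (log2 0.18), without WT replicate 2 or 3 at 40 min (0.22 and 0.33) and without *Tet2*-KO replicate 3 at 40 min (0.29). That of *Max* in *Tet2*-KO was lost without *Tet2*-KO replicate 2 or 3 at 10 min (0.11 and 0.14) or replicate 3 at 40 min (0.14).

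The difference between genotypes changed from 10 to 40 min for *Mga* alone, by −0.094 on the log2 scale (SE 0.03, adjusted p = 0.0362, edgeR), while 5.89% of all genes changed upwards and 3.36% downwards. The call was lost in 8 of 18 fits that left out 1 library, and without the low-count filter (adjusted p = 0.153, edgeR). The libraries whose removal ended it were WT replicate 3 at 10 min, WT replicates 2 and 3 at 40 min, *Tet2*-KO replicates 1 and 3 at 10 min and *Tet2*-KO replicates 1, 2 and 3 at 40 min, and the difference was −0.084 to −0.099 with any library left out. *Myc* had −0.20 (SE 0.17, adjusted p = 0.551) and *Mycn* 0.16 (SE 0.08, adjusted p = 0.261). The 95% interval of *Myc* ran from 0.69-fold to 1.11-fold and that of *Mycn* from 0.99-fold to 1.26-fold.

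**Figure D4:**
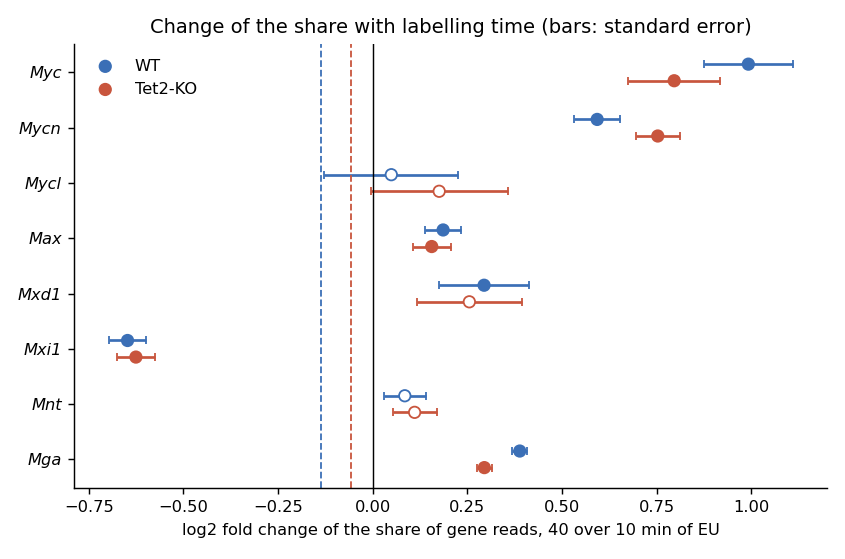
Log2 fold change of the share of gene reads from 10 to 40 min of EU for each gene (rows), in WT (blue) and in libraries labelled *Tet2*-KO (red). Points are fitted values, bars are SEs, filled points passed an adjusted p of 0.05 and the dashed lines are the medians of all 19910 genes (−0.14 in WT and −0.06 in *Tet2*-KO). *Myc* and *Mycn* lie at 0.59 to 0.99 and *Mxi1* at −0.65 and −0.63.

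Over the 18 libraries, the log2 share of *Myc* went most with that of *Mga* among the 8 genes (Pearson r = 0.93) and against that of *Mxi1* (r = −0.72), and *Mxd1* went with *Mnt* (r = 0.81). Genotype, EU time and the common total set these points, so they are a description. Among 11007 protein-coding genes the 3 nearest to *Myc* were *Zfp599* (r = 0.96), *9930021J03Rik* (0.96) and *Rbm25* (0.95), and to *Mycn* they were *Mb21d2* (0.97), *Prmt3* (0.97) and *Gm2381* (0.96). For *Max* they were *Gemin8* (0.93), *Cald1* (0.91) and *Dpp7* (0.90), and for *Mycl* *Basp1* (0.79), *Creb5* (0.75) and *Zfp207* (0.74). As levels per ERCC read, 0 of these 12 stayed among the 3 nearest.

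The wider network was described by lists of known partners and targets, as shares averaged over EU times and beside the 24.6% of all genes that were higher and the 32.0% that were lower. Of 5 further MXD and MLX-branch genes, 1 was higher and 1 lower (median log2 0.00). *Mlxipl*, which encodes the glucose-sensing factor ChREBP, was at 1.48 (SE 0.05, adjusted p = 5.78e-24), and *Mxd4*, another antagonist gene with 11 to 57 reads per library, at −0.55 (SE 0.19, adjusted p = 0.0151). *Mlx*, the dimer partner of that branch, did not pass (−0.16, SE 0.09).

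Of 15 genes for MYC cofactors and MYC stability, 7 were higher and 3 lower (median 0.05). *Wdr5*, a MYC-binding chromatin adaptor, was at 0.39 and *Trrap*, the scaffold of acetyltransferase complexes, at 0.21. *Ruvbl1*, an ATPase of the same complexes, was at −0.64 and *Kat5*, an acetyltransferase, at −0.32. Of 9 SIN3-HDAC genes, through which MXD proteins and MNT repress, 3 were higher and 2 lower (median −0.01). *Ncor1* was at 0.24, *Rbbp7* at 0.13, *Sap30* at −0.29 and *Hdac1* at −0.16.

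Of 12 genes of PRC1.6, the complex of MGA, 5 were higher and 3 lower (median −0.01). *Wdr5*, which is in this list as well, and *Tfdp2*, a dimer partner of E2F proteins, were the highest at 0.39 and 0.35, and of those called *E2f6* and *Cbx3* were the lowest at −0.30 and −0.14.

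Among these lists, which were chosen with earlier results of these data known, the germline genes moved furthest. All 12 were tested, and in *Tet2*-KO 9 were higher and 2 lower as shares, with a median log2 difference of 0.77. Per ERCC read 11 were higher and 0 lower, beside 80.5% and 4.15% of all genes. The median on that scale was 1.49 for the list and 0.70 for all genes. *Stk31*, a germ-cell kinase gene with an E-box in its window, went from a median share of 17.1 CPM in WT to 67.2 in *Tet2*-KO (log2 2.06, SE 0.04, adjusted p = 2.44e-30). *Tex101*, a germ-cell surface protein gene with 0 to 17 reads per library, was at 1.80 (SE 0.43). *Stra8*, the meiotic inducer, was lower at −0.88 (SE 0.06, adjusted p = 1.71e-14), and *Ddx4*, the germline RNA helicase gene, at −0.41 (SE 0.04). Per ERCC read *Stra8* had −0.15 (adjusted p = 0.0597) and *Ddx4* was higher by 0.33. The 6 genes with the E-box divided into 4 higher (*Stk31*, *Mael*, *Slc25a31* and *Taf7l*), *Ddx4* lower and *Sycp3* not called (−0.20, SE 0.10). The germline genes without the E-box in their windows rose as well, except *Stra8*. They were *Tex101*, *Dazl* (1.19), *Tdrkh* (1.04), *Zcwpw1* (0.89) and *Meioc* (0.56). The part of *Mga* or any other member in these values was not tested.

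**Figure D5:**
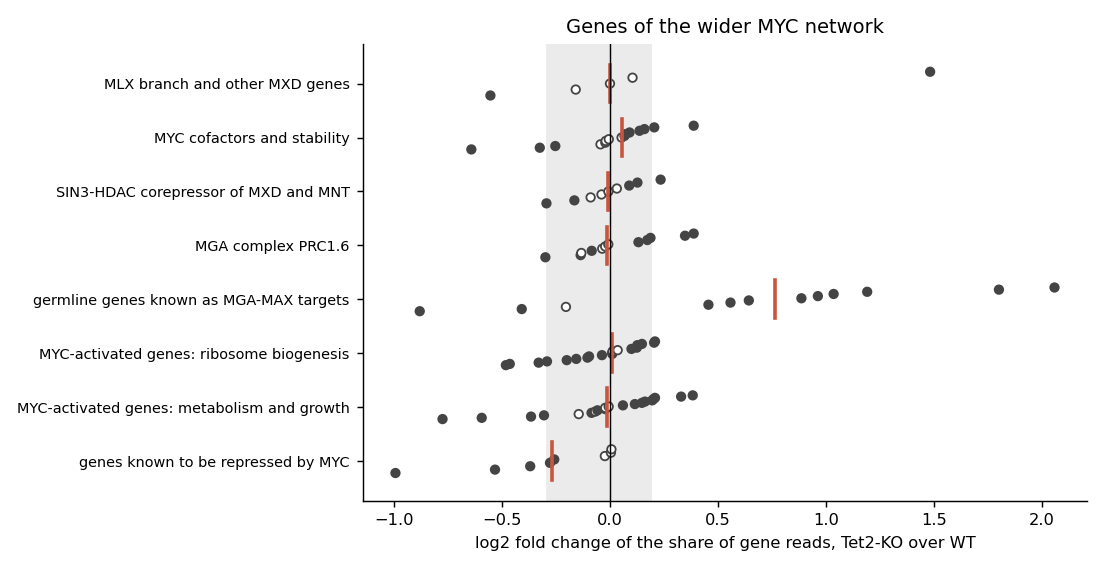
Log2 fold change of the share of gene reads between libraries labelled *Tet2*-KO and WT, averaged over EU times, for the tested genes of 8 lists (rows). Points are genes, filled where the adjusted p was under 0.05, red bars are list medians and the grey band holds the middle quartiles of all 19910 genes. The germline list has its median at 0.77 and the list of MYC-repressed genes at −0.27, and the other 6 medians lie between −0.01 and 0.05.

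Genes known to be activated by MYC went both ways. Of 20 for ribosome biogenesis, 7 were higher and 9 lower as shares (median 0.01), and 10 and 7 with TMM scaling. All 20 were higher per ERCC read, as were 80.5% of all genes. *Pa2g4* (0.21) and *Npm1* (0.20), a growth regulator and the nucleolar chaperone nucleophosmin, were the highest. *Rrp9* (−0.48) and *Fbl* (−0.46), a factor of the U3 particle and the rRNA methyltransferase fibrillarin, were the lowest. Of 20 for metabolism and growth, 9 were higher and 6 lower (median −0.01). *Eif4ebp1* (0.38), which encodes a brake on translation, and *Ldha* (0.33), lactate dehydrogenase, were the highest, and *Ccnd2* (−0.77), a cyclin gene with 6 to 58 reads per library, and *Hk2* (−0.59), hexokinase, the lowest.

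Of 10 genes known to be repressed by MYC, 8 were tested, and 0 were higher and 5 lower as shares (median −0.27). Per ERCC read 7 of the 8 were higher and 0 lower (median 0.47), beside 80.5% and 4.15% of all genes (median 0.70). *Ndrg2* (−0.99, SE 0.21, 7 to 54 reads per library) and *Cdkn1b* (−0.53, SE 0.08), the gene of the cyclin-dependent kinase inhibitor p27, were the lowest. *Cdkn1a* (−0.28, SE 0.03), the gene of p21, and *Itga6* (−0.26, SE 0.02), an integrin gene, were also lower. *Cdkn1c* and *Gas1* had at most 9 reads in any library and were not tested.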

How the data were processed

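Nascent RNA of 18 libraries was analysed. The authors trimmed reads with Trimmomatic 0.39, aligned them with HISAT2 2.2.1 to mm10 (GENCODE M19 and ERCC) and counted with HTSeq 0.12.4; the deposited values are raw counts per gene. The HTSeq settings are not given in the sources used here. Of 1833 genes inside a same-strand protein-coding gene, 1832 had 0 reads in all libraries, against 165 of 1986 inside an opposite-strand gene, so counts behave as stranded and over whole gene spans. Reads on no feature were 13.2% to 16.9%, and ambiguous ones 2.32% to 2.50%, and both were left out. Pairs of replicates differed beyond counting noise (mean chi-square per gene 1.64 to 5.37), so none was counted as a copy. Names and positions came from GENCODE M21 (54409 of 54446 identifiers matched). The 92 ERCC rows gave levels per ERCC read without concentrations, so levels are relative and not attomoles.

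Differences were tested by edgeR 4.0.16 (R 4.3.3) with a quasi-likelihood fit of the 6 groups, library sizes of ERCC or gene read totals, filterByExpr at a minimum count of 10 (19910 genes) and Benjamini-Hochberg adjustment at 0.05. SEs are the absolute log2 fold change over the square root of F. In simulated data for the averaged share comparison on 19910 genes, edgeR recovered 80 of 91 doubled and 90 of 109 halved genes, with 13 false calls. The simulation had no effect of EU time and 200 changed genes, far fewer than were called in the data. It thus does not give the rate of false calls in the data. Likeness used log2(share + 0.5) for genes of mean log2 share above 2. Named were the 8 genes, genes overlapping them, the 3 nearest genes and, per list, the 2 highest and 2 lowest called. *Zfp42*, *Lum*, *Sox2*, *Mlx*, *Mael*, *Slc25a31*, *Taf7l*, *Sycp3*, *Dazl*, *Tdrkh*, *Zcwpw1*, *Meioc*, *Cdkn1c* and *Gas1* were named after their values were seen. So were *Klf4*, *Tfcp2l1*, *Nanog*, *Esrrb*, *Sall4*, *Pou5f1*, *Gata3* and *Eomes*. The members and lists were chosen with earlier results of these data known. Alternatives were TMM, protein-coding totals, DESeq2 1.42.0, no low-count filter, a replicate block, single times, other ERCC sets and slopes, and each library left out. No molecular identifiers were used, so reads can be copies of a molecule and precision from depth covers counting error only.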

Additional observations from a re-analysis of the deposited data

Results flagged for a closer look

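The genotype difference in the share of *Mga* changed with EU time, by −0.094 on the log2 scale from 10 to 40 min (SE 0.03, adjusted p = 0.0362 in the interaction term of the edgeR fit). The call was lost in 8 of 18 fits that left out 1 library, and without the low-count filter (adjusted p = 0.153, edgeR). The difference was 0.08 at 10 min, 0.09 at 20 min and −0.01 at 40 min, and the share was higher in 3 of 3 *Tet2*-KO libraries than in every WT library at 10 and at 20 min and overlapped at 40 min. The other 7 genes passed no such test. The fibroblast markers had a higher summed share in the WT libraries at 10 min (21.5 to 22.9 CPM) than in any other group, and their part in this was not tested.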

How the results depend on the processing

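Averaged over EU times, the counts of the 8 genes higher and lower between genotypes were the same under every scaling, filter, ERCC set and replicate block tried, and with each library left out (7 and 1 per ERCC read, 3 and 3 as shares). Leaving out a library gave 4 to 5 genes rising and 1 to 1 falling with EU time in WT, 3 to 5 and 1 to 1 in *Tet2*-KO, 0 to 1 falling and 0 to 0 rising for the change in the genotype difference, and 7 to 7 larger slopes. The 1 call there, *Mga*, was lost without any of WT 10 min replicate 3, WT 40 min replicates 2 and 3, *Tet2*-KO 10 min replicates 1 and 3 and *Tet2*-KO 40 min replicates 1, 2 and 3, and without the low-count filter, which left 0 genes (adjusted p = 0.153, edgeR). Replicate numbers did not pair the samples (correlation of deviations −0.228 to 0.192), and the replicate block changed no call of the members (*Mxd1* share −0.97, *Mga* interaction −0.094).

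Uncalled values changed sign. The averaged share of *Myc* was 0.027 with TMM and 0.022 with DESeq2, and −0.052 to 0.027 with a library left out. The change in the genotype difference was −0.035 and −0.042 for *Mxi1* and −0.031 and −0.038 for *Mnt* with TMM and DESeq2. With a library left out it was −0.077 to 0.035 for *Max*, −0.18 to 0.079 for *Mxd1*, −0.031 to 0.064 for *Mxi1* and −0.0040 to 0.081 for *Mnt*, and the WT time change of *Mycl* was −0.048 to 0.13. The cause was not tested.

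TMM moved the median of all genes at 40 against 10 min in WT by 0.10 and the share of calls that were rises from 35.2% to 50.9%, and made the rise of *Mnt* a call (0.19 in WT, 0.16 in *Tet2*-KO). With TMM the medians of the SIN3-HDAC, PRC1.6 and metabolism lists between genotypes turned from −0.01 to 0.03 each. For the change in the genotype difference TMM moved the upward share from 63.7% to 38.8%. Fitted alone, the 40 min libraries gave 1 lower gene per ERCC read (*Mxd1*, adjusted p = 0.0428, edgeR), and in shares *Mnt* was lost at 10 min and called at 40 min. The ratio of slopes of *Mxd1* was 0.683 without *Tet2*-KO 40 min replicate 1, and with 10 and 20 min only it was 0.54 for *Mxd1*, 0.87 for *Mxi1* and 0.91 for *Mnt*, against 1.08, 2.43 and 1.88 with 20 and 40 min only. By gene span in place of exons, 1 gene kept its place in the order of levels, and 0 of 12 nearest genes stayed per ERCC read. Depth limits genes with few reads, such as *Tex101* (0 to 17 reads, SE 0.43) and *Taf7l* (5 to 30 reads, SE 0.29).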
